A study of Mus musculus with 2 samples.

Results

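Neurofilaments are the intermediate filaments of axons. They are built from a light (Nefl), a medium (Nefm) and a heavy (Nefh) chain, together with alpha-internexin (Ina) in central neurons and peripherin (Prph) in neurons with axons outside the brain and cord. They are known for filling and widening large, fast axons, such as those of brainstem neurons that reach the spinal cord. These 5 genes are described here with 4 genes often used to mark large projection or fast-firing neurons. Spp1 encodes osteopontin, a secreted phosphoprotein, and Pvalb encodes parvalbumin, a calcium buffer. Thy1 encodes a surface glycoprotein of neurons and Sncg encodes gamma-synuclein, a soluble protein of axon terminals. The 9 members were taken by name from a table of 23912 genes, and all 9 were counted in both libraries.

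The nuclei came from TRAP2 mice aged 8 to 12 weeks, a line in which Fos activity drives an inducible Cre recombinase. A retrograde virus carrying a nuclear fluorescent protein, H2B-GFP, had been placed in the lumbar cord, so both groups consist of sorted nuclei of hindbrain neurons with axons there. Tissue lay about -7.3 to -5.2 mm from bregma, and hindbrains of each treatment were pooled. There is 1 library after a hot water bath and 1 for SNI with brush, and the labels name no untreated control. SNI is the usual abbreviation of spared nerve injury, which the labels do not spell out. With 1 library per treatment no test between them is possible, and the numbers below compare 2 libraries.

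After removal of called doublets, 423 hot water bath nuclei and 264 SNI with brush nuclei were neuronal, with medians of 36952 and 33382 counted transcripts (UMIs, unique molecular identifiers). The total of the neuronal nuclei was 16225693 and 10595431 UMIs, and no barcode was shared. All 8 neuron markers were counted in each library. The SNI with brush library also held 17 nuclei set aside as not neuronal, 15 of them by liver genes, and no such nucleus lay in the other library. Mitochondrially encoded genes took 0.148% of UMIs in hot water bath nuclei and 0.474% in SNI with brush nuclei. Summed levels are CPM (UMIs of a gene per 1000000 UMIs), with exact 95% Poisson intervals that cover counting error only and not the spread between nuclei or animals. Levels of different genes were not compared with each other, since they are not scaled by length.

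The members are spread over 6 chromosomes of mm10. In the GENCODE vM21 annotation Nefl (ENSMUSG00000022055) lies at chr14:68083863-68089095 on the plus strand and has 4 exons. Nefm (ENSMUSG00000022054) is annotated at chr14:68082590-68124846 on the minus strand, a model of 42257 bp that runs over the whole of Nefl. RefSeq places the 2 genes 30.449 kb apart. The sources used here do not say whether the counting used strand, so whether reads in the overlap were told apart is not known here. Nefh lies at chr11:4938754-4948064, Ina at chr19:47014698-47025327, Prph at chr15:99055174-99058978 and Spp1 at chr5:104435118-104441050. Pvalb lies at chr15:78191114-78206400, Thy1 at chr9:44043384-44048579 and Sncg at chr14:34370274-34374789. Ina overlaps Nt5c2 on the other strand and Spp1 overlaps the gene model Gm42793.

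The 100 bases before the transcription start are shown for the 4 members that RefSeq's table on GRCm38.p6 allows, since they span the smallest (Prph) and the largest (Pvalb) difference between the libraries described below. Capitals mark matches, on either strand, to the TATA box TATAAA, the CCAAT box CCAAT, the GC box GGGCGG and the E-box CANNTG. The Ina window is chr19:47014581-47014680 (plus strand), the Prph window chr15:99055074-99055173 (plus), the Spp1 window chr5:104435011-104435110 (plus) and the Pvalb window chr15:78206401-78206500 (minus).
Ina: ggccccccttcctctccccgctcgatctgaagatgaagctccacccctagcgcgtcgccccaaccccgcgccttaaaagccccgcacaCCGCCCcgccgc
Prph: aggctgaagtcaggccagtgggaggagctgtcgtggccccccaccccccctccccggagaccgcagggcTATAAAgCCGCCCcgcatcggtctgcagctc
Spp1: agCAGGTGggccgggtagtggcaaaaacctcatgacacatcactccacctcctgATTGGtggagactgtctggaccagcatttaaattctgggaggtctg
Pvalb: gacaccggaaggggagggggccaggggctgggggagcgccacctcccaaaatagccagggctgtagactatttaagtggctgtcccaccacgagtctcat

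The Prph window holds a TATA box next to a GC box, the Ina window a GC box alone, and the Spp1 window a CCAAT box and an E-box. Of 32851 windows of the same length, 5.56% hold TATAAA, 18.9% CCAAT, 24.7% GGGCGG and 34.4% CANNTG. No match to these 4, to the cyclic AMP response element TGACGTCA (1.15% of windows) or to the AP-1 site TGACTCA (1.88%) lies in the Pvalb window. These are matches of letters only. The table has no entry for Nefl, Nefm, Nefh and Thy1, and the Sncg window overlaps an annotated exon.

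In the SNI with brush library the neurofilament triplet was higher, and so were Ina and the markers Spp1, Pvalb and Thy1. For Prph, summed over all neuronal nuclei, the intervals of the libraries overlapped. Sncg was somewhat higher in SNI with brush, by less than 1.5-fold. Each gene is given below by its level in the hot water bath and then the SNI with brush library, and by the log2 ratio of the second over the first.

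Nefl, the chain without which the filament does not form, stood at 68.8 CPM (64.8 to 72.9) for the hot water bath, against 151 CPM (144 to 159) for SNI with brush, a log2 ratio of 1.14 (1.03 to 1.25). Nefm had 91.6 CPM (87.0 to 96.4) and 182 CPM (174 to 190), a log2 ratio of 0.99 (0.89 to 1.09). Nefh, whose long phosphorylated tail reaches between filaments, had 19.97 CPM (17.9 to 22.3) and 63.3 CPM (58.6 to 68.3), a log2 ratio of 1.66 (1.47 to 1.86). The intervals of the libraries were apart for all 3 chains. How many of all genes had intervals apart was not counted, so this is not particular to the chains. A UMI of Nefl was found in 337 of 423 and 249 of 264 nuclei, of Nefm in 354 and 237, and of Nefh in 172 and 171. Thinned to 9000 UMIs per nucleus, which removes the difference in depth, the share with a UMI was 38.5% and 61.0% for Nefl, 46.3% and 65.5% for Nefm, and 17.0% and 34.5% for Nefh.

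Ina followed the triplet, with 51.3 CPM (47.9 to 54.9) and 110 CPM (104 to 117), a log2 ratio of 1.10 (0.97 to 1.23). Prph had 8.44 CPM (7.09 to 9.98) and 8.59 CPM (6.92 to 10.5), a log2 ratio of 0.03 (-0.37 to 0.42). With the transmitter classes other than serotonergic weighted equally, the mean Prph log2 ratio was 1.05. That mean was raised by the glycinergic value of 3.48, which rests on the 0.5 UMI added to a count of 0 after the hot water bath. Glutamatergic, mixed and other inhibitory nuclei gave -0.13, 0.15 and 0.73, each with an interval that included 0. Prph levels by class are given below. Peripherin transcripts lay in few nuclei: 72 of 423 and 59 of 264 had a UMI, and the 10% of nuclei highest in Prph held 78.1% and 63.7% of its UMIs.

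Spp1 had 10.5 CPM (9.02 to 12.2) and 40.4 CPM (36.7 to 44.4), a log2 ratio of 1.94 (1.68 to 2.20). It too lay in few nuclei, with a UMI in 55 and 91 nuclei and 92.4% and 76.6% of its UMIs in the highest 10%. Thy1 had 51.1 CPM (47.7 to 54.7) and 136 CPM (129 to 143), a log2 ratio of 1.41 (1.28 to 1.53), and was spread widely, over 326 and 254 nuclei. Pvalb had 8.75 CPM (7.37 to 10.3) and 61.2 CPM (56.5 to 66.1), a log2 ratio of 2.80 (2.54 to 3.08) and the largest of the 9. Sncg had 18.7 CPM (16.7 to 21.0) and 25.8 CPM (22.8 to 29.0), a log2 ratio of 0.46 (0.22 to 0.70).

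**Figure D1:**
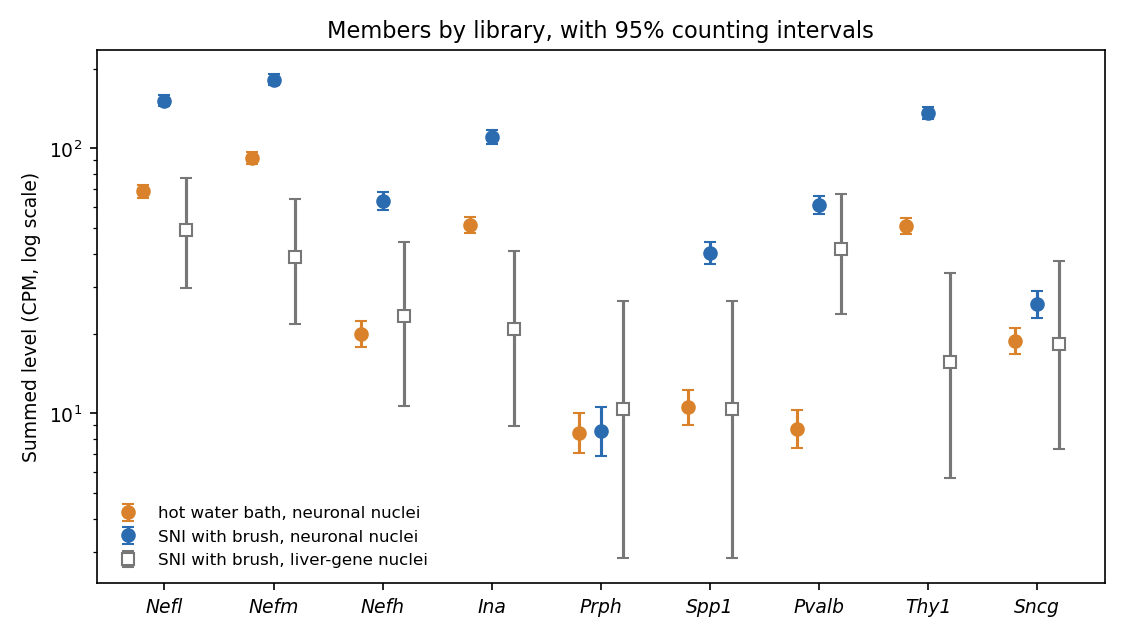
Summed level of each of the 9 genes in CPM on a log axis, for the neuronal nuclei of each library (circles) and for the 15 liver-gene nuclei of the SNI with brush library (open squares), with exact 95% Poisson intervals. Both libraries are level for Prph near 8.5 CPM, and the Pvalb square at 41.6 CPM lies close to the neuronal value of 61.2 CPM.

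In all, 7 of 9 members had an SNI with brush level at least 1.5 times the other library's, as did 25.4% of the 12957 genes with at least 100 UMIs, and 0 were at least 1.5-fold lower, against 6% of those genes. Their median log2 ratio was 1.14, beside 0.19 over all genes tested. Gene length moved with these ratios. Among the shortest 20% of genes, up to 9.921 kb, 57.7% were at least 1.5-fold higher and the median was 0.72. By RefSeq lengths 7 of 9 members fall in that group, Prph and Sncg among them, while Ina and Pvalb are in the next. Centring the median of all genes at 0 shifts every log2 ratio by -0.19, after which 7 members still passed 1.5-fold, as did 17.8% of all genes. Markers of several other cell types were also higher in SNI with brush, while the 4 microglia markers were level at 74.7 and 74.1 CPM. In neuronal nuclei the 6 hepatocyte markers summed to 0.247 CPM (4 UMIs) and 43.3 CPM (459 UMIs). The 5 motor neuron markers summed to 9.92 and 21.9 CPM and the 5 peripheral sensory neuron markers to 2.28 and 9.15 CPM. Lower in SNI with brush were the 3 serotonergic markers (137 and 48.5 CPM) and the 3 V2a neuron markers (18.1 and 9.63 CPM). The 6 oligodendrocyte markers, all counted, summed to 78.4 and 186 CPM, and the 4 astrocyte markers to 5.92 and 17.3 CPM. The 3 ependymal or choroid markers summed to 11.2 and 242 CPM, with Folr1 at 0 and 2 UMIs. Ttr made up 97.8% of that sum in SNI with brush. Ttr was also high in the 17 nuclei set aside in that library, 15 of them by liver genes, at 2367 CPM (2221 to 2520). The sum is therefore not specific to ependymal or choroid cells. The part of gene length, of mitochondrial share and of these markers in the ratios was not tested.

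UMIs of the members were also counted in the 15 liver-gene nuclei of the SNI with brush library (median 18631 UMIs). Whether those UMIs came from free RNA was not tested. In these 15 nuclei Pvalb stood at 41.6 CPM (23.8 to 67.5), 68.0% of its level in neuronal nuclei, and Sncg at 18.2 CPM (7.31 to 37.5), 70.6%. Prph stood at 10.4 CPM (2.83 to 26.6), which includes its neuronal level. For the others the levels were 11.5% (Thy1), 18.9% (Ina), 21.5% (Nefm), 25.7% (Spp1), 32.6% (Nefl) and 36.9% (Nefh) of the neuronal value. After thinning to 9000 UMIs, 7 of these 15 nuclei (46.7%, 21.3 to 73.4%) had a Pvalb UMI, against 34.1% of neuronal nuclei of that library. The share for Prph was 13.3% against 5.30% and for Sncg 20% against 16.3%. At this depth the shares of these 3 genes over all neuronal nuclei of SNI with brush thus did not exceed those of liver-gene nuclei, which says nothing of single nuclei with more UMIs. The 13.3% and 14.8% for Spp1 lie close together too. For Thy1 (6.67% against 70.5%) and Ina (6.67% against 59.5%) the neurons stood far above. With 15 nuclei the shares are loose, as for Nefh (13.3%, 1.66 to 40.5%, against 34.5%). No liver-gene nuclei were found among hot water bath nuclei to give such levels there, and the part of free RNA in the Pvalb ratio was not tested.

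Levels were next set against transmitter class. A nucleus was glutamatergic or inhibitory where at least 75% of 3 or more transmitter UMIs were of that kind, glycinergic where an inhibitory one held at least 3 UMIs of the glycine transporter Slc6a5, and serotonergic with at least 10 UMIs of the serotonin synthesis gene Tph2. The hot water bath library held 252 glutamatergic, 20 glycinergic, 40 other inhibitory and 26 serotonergic nuclei, with 85 mixed or with few transmitter UMIs. The SNI with brush library held 120, 72, 30, 3 and 39.

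Serotonergic nuclei were lowest in the triplet and glycinergic or glutamatergic nuclei highest. After the hot water bath the summed level of Nefl, Nefm and Nefh was 275 CPM (239 to 316) in glycinergic, 192 CPM (184 to 201) in glutamatergic, 173 CPM (152 to 196) in other inhibitory, 149 CPM (135 to 164) in mixed and 95.8 CPM (78.4 to 116) in serotonergic nuclei. Only the glutamatergic and other inhibitory, and the other inhibitory and mixed, intervals overlapped between neighbours in that order. In the SNI with brush library it was 436 CPM (419 to 454) in glutamatergic, 413 CPM (390 to 437) in glycinergic, 294 CPM (265 to 325) in mixed and 261 CPM (225 to 301) in other inhibitory nuclei. Glutamatergic and glycinergic intervals overlapped, as did those of mixed and other inhibitory nuclei. The 3 serotonergic nuclei there had 22 triplet UMIs, or 145 CPM (91.2 to 220).

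The log2 ratio of serotonergic over glutamatergic nuclei was -0.998 (-1.30 to -0.72) for hot water bath nuclei and -1.55 (-2.26 to -0.98) for SNI with brush nuclei. Other inhibitory nuclei stood below glycinergic nuclei by similar amounts, at -0.67 (-0.95 to -0.40) and -0.66 (-0.89 to -0.44). Glycinergic over glutamatergic differed between libraries in value, with 0.52 (0.30 to 0.73) for the hot water bath, against -0.08 (-0.18 to 0.02) for SNI with brush. That difference was not tested, and the hot water bath value comes from 20 nuclei, 1 of which held 13.0% of the class's triplet UMIs. Glycinergic nuclei also had more mitochondrial UMIs than glutamatergic ones, 0.626% against 0.103% and 0.628% against 0.354%. The part of that share in the class levels was not tested.

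**Figure D2:**
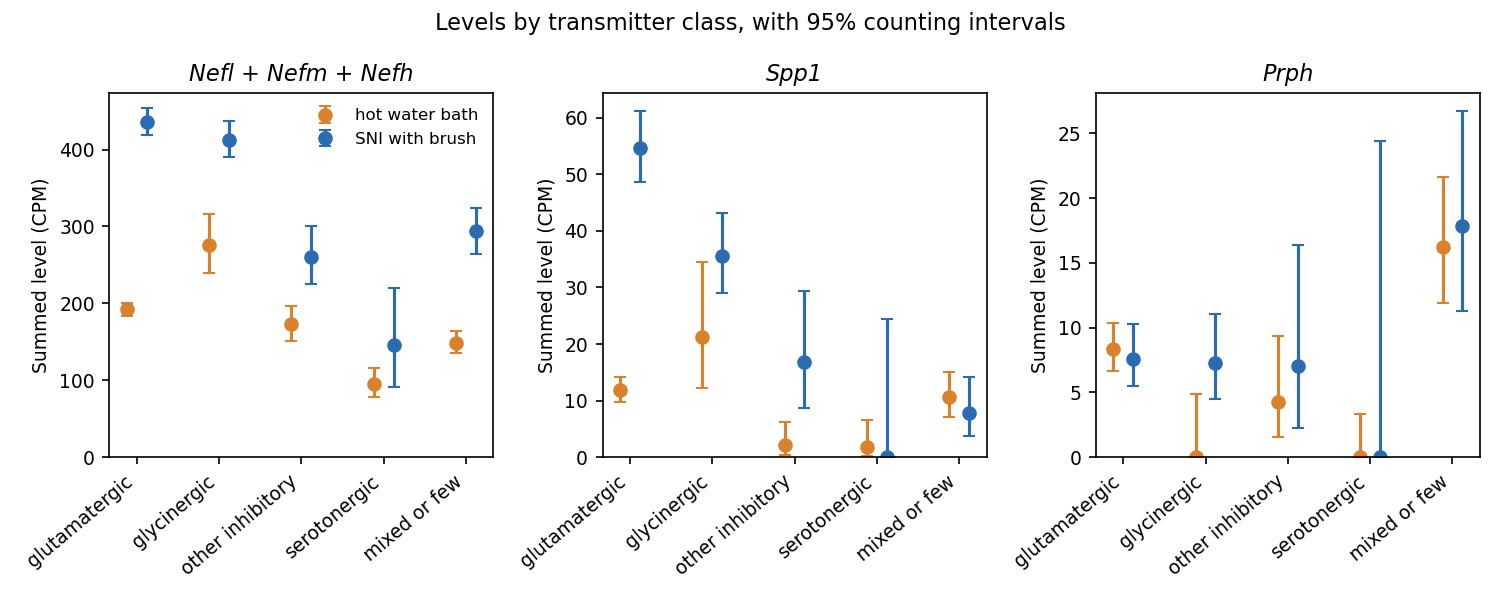
Summed level in CPM, with exact 95% Poisson intervals, of Nefl, Nefm and Nefh together, of Spp1 and of Prph in each transmitter class, for the hot water bath (orange) and SNI with brush (blue) libraries; each panel has its own axis from 0. Triplet levels are lowest in serotonergic nuclei of both libraries, and Prph is highest in nuclei with mixed or few transmitter UMIs.

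Spp1 also varied over classes. After the hot water bath it had 21.3 CPM (12.2 to 34.6) in glycinergic and 11.8 CPM (9.80 to 14.1) in glutamatergic nuclei, against 2.15 CPM (0.44 to 6.29) in other inhibitory and 1.83 CPM (0.22 to 6.59) in serotonergic nuclei. Mixed nuclei had 10.6 CPM (7.14 to 15.1). Of the 16 glycinergic UMIs 7 lay in 1 nucleus, without which the class had 13.1 CPM (5.97 to 24.8), a value chosen after seeing the data, as for Prph below. In SNI with brush glutamatergic nuclei were highest with 54.7 CPM (48.7 to 61.2), glycinergic nuclei followed with 35.5 CPM (29.0 to 43.1), other inhibitory nuclei had 16.8 CPM (8.69 to 29.4), and mixed nuclei had 7.74 CPM (3.71 to 14.2), the lowest of these 4 classes. Spp1 thus stood below the glutamatergic level in other inhibitory nuclei of both libraries, with log2 ratios of -2.24 (-4.76 to -0.88) and -1.64 (-2.67 to -0.87).

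Prph was distributed differently. Its level was highest in mixed nuclei, at 16.2 CPM (11.9 to 21.7) and 17.8 CPM (11.3 to 26.7), against 8.37 CPM (6.69 to 10.4) and 7.58 CPM (5.46 to 10.2) in glutamatergic nuclei. In SNI with brush 1 nucleus held 34.8% of the mixed class's 23 UMIs; without it the level was 11.8 CPM (6.62 to 19.5), which overlaps the glutamatergic interval. No Prph UMI was counted in the 20 glycinergic or the 26 serotonergic nuclei of the hot water bath library, with intervals up to 4.91 and 3.37 CPM. Glycinergic nuclei of the SNI with brush library did hold it, with 21 UMIs in 19 of 72 nuclei, or 7.24 CPM (4.48 to 11.1), near the glutamatergic level. Sncg was higher in serotonergic than in glutamatergic nuclei of the hot water bath library, 29.2 CPM (19.98 to 41.2) against 18.5 CPM (16.0 to 21.4), a log2 ratio of 0.68 (0.07 to 1.20), with 25% of the serotonergic UMIs in 1 nucleus. Thy1 and Ina varied less by class there: Thy1 ran from 40.2 to 67.9 CPM, and Ina from 40.9 to 79.8 CPM. Within glutamatergic nuclei alone the log2 ratio between libraries was 1.18 (1.10 to 1.27) for the triplet, 2.21 (1.90 to 2.53) for Spp1 and -0.13 (-0.71 to 0.41) for Prph. For the triplet the other classes gave less: 0.58 (0.37 to 0.80) in glycinergic, 0.59 (0.31 to 0.88) in other inhibitory, 0.63 (-0.13 to 1.28) in serotonergic and 0.98 (0.77 to 1.18) in mixed nuclei. Spp1 gave 0.70 (-0.03 to 1.60) in glycinergic, 2.80 (1.08 to 5.43) in other inhibitory and -0.40 (-1.65 to 0.62) in mixed nuclei.

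Raw counts rose with the number of UMIs of a nucleus, and levels of the triplet did so more weakly. Spearman's rho between raw triplet UMIs and total UMIs was 0.55 over 423 and 0.67 over 264 nuclei. For triplet UMIs per 10000 it was 0.17 and 0.16, and after thinning 0.12 and 0.08. Nuclei of a library share its preparation, and total UMIs enter both axes, so these are descriptions. For single members the per-10000 values ran from -0.04 (Ina) to 0.22 (Nefm) after the hot water bath, and from -0.19 (Thy1) to 0.25 (Nefm) in SNI with brush.

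Mitochondrial share moved with the summed triplet too, with a rho of 0.13 and 0.21 against triplet UMIs per 10000. Of 3 equal groups of nuclei ordered by it, the lowest had 163 CPM (153 to 174), the middle 177 CPM (166 to 189) and the highest 206 CPM (193 to 219) after the hot water bath. There Nefl ran from 55.5 to 88.6 CPM between the lowest and highest groups, while Nefm stood at 88.9, 93.5 and 92.9 CPM. In SNI with brush the summed values were 309 CPM (293 to 326), 406 CPM (383 to 429) and 508 CPM (484 to 534). Thy1 ran from 38.4 to 70.5 CPM and from 101 to 185 CPM between the lowest and highest groups, and Pvalb from 6.77 to 12.8 CPM and from 41.5 to 94.6 CPM. Ordered by total UMIs the triplet values were 152, 167 and 202 CPM after the hot water bath and 370, 314 and 444 CPM in SNI with brush, with no steady order in the latter. Between the lowest and highest of these groups Nefm ran from 68.9 to 107 CPM and from 141 to 215 CPM. Nefh ran from 16.0 to 25.1 CPM and from 50.9 to 71.0 CPM. Nefl did not rise clearly, at 67.4 and 69.5 CPM after the hot water bath and 179 and 157 CPM in SNI with brush.

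**Figure D3:**
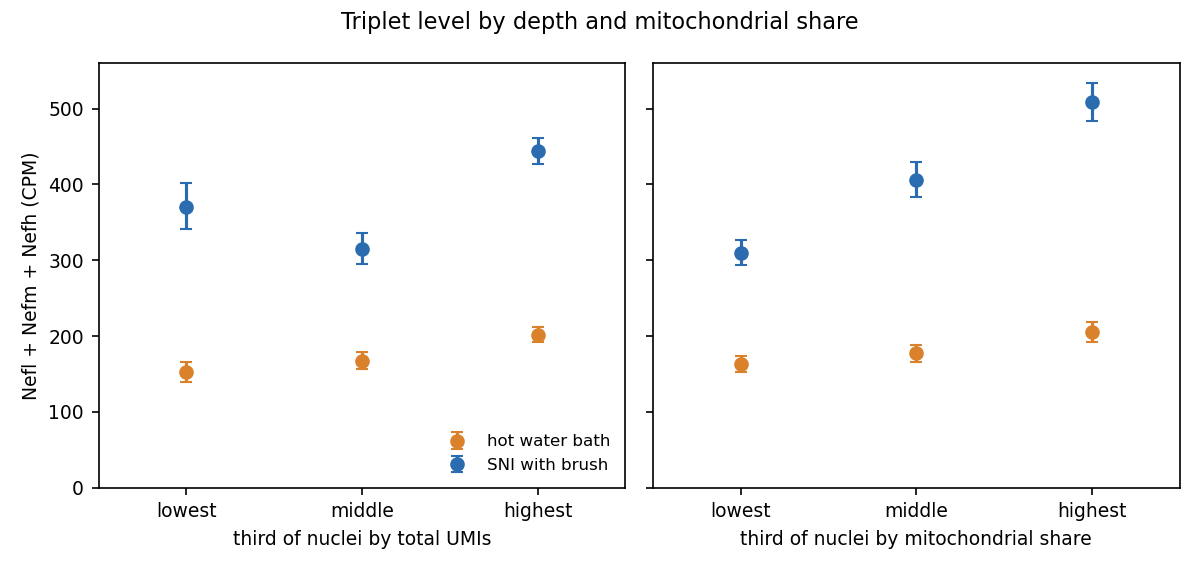
Summed Nefl, Nefm and Nefh in CPM, with exact 95% Poisson intervals, in 3 equal groups of neuronal nuclei ordered by total UMIs (left) or by mitochondrial share (right), for each library. The right panel shows the level climbing with mitochondrial share, from 309 to 508 CPM in SNI with brush and from 163 to 206 CPM after the hot water bath.

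Whether the members are high in the same nuclei was examined within each library. A nucleus was called high for a gene when it was among the 10% of neuronal nuclei with most UMIs per 10000 of that gene and held at least 2 of its UMIs. For all 3 pairs of the triplet, nuclei high in 1 gene were more often high in the other than the remaining nuclei were. Of 42 nuclei high in Nefl after the hot water bath, 12 were high in Nefh (28.6%, exact binomial interval 15.7 to 44.6%), against 6.30% (4.08 to 9.23%) of the rest. In SNI with brush it was 16 of 26 (61.5%, 40.6 to 79.8%) against 4.202% (2.03 to 7.59%). For nuclei high in Nefm, the share also high in Nefh was 31.0% (17.6 to 47.1%) against 6.04% (3.86 to 8.92%), and 53.8% (33.4 to 73.4%) against 5.04% (2.63 to 8.64%). Nefl and Nefm, whose reads may be shared in the annotation's overlap, gave 28.6% against 7.87% and 50.0% against 5.46%.

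Over all 36 pairs of members, 13 had intervals apart in each library, 10 of them in both (76.9% of each). The pairs overlap in members and nuclei and are not independent. Pairs of other genes were not counted in this way, so whether such numbers are particular to the members was not tested. Besides the triplet pairs, the 10 were Nefl with Ina, Pvalb and Thy1, Nefm with Pvalb, Nefh with Pvalb and Spp1, and Ina with Pvalb. Thus 4 of the 7 outside the triplet include Pvalb, whose share over all neuronal nuclei of SNI with brush was at the level of liver-gene nuclei. None of the 15 pairs with Prph or Sncg was apart in either library. In SNI with brush 0 of 12 nuclei high in Prph were high in Nefl, Nefm or Nefh (0%, 0 to 26.5% for each). After the hot water bath 4 of 29 were high in Nefl (13.8%, 3.89 to 31.7%, against 9.64% of the rest), and 1 each in Nefm and Nefh. The largest number of members high in 1 nucleus was 7 after the hot water bath and 6 in SNI with brush; 9 nuclei (2.13%) and 14 nuclei (5.30%) were high in at least 4.

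Depth and the number of UMIs limit this result. Thinned to 9000 UMIs, 5 of 89 nuclei high in Nefm were high in Nefh after the hot water bath (5.62% against 1.20% of the rest) and 7 of 29 in SNI with brush (24.1% against 10.6%), and the intervals of both overlapped. For the other triplet pairs the intervals also overlapped after the hot water bath, but not in SNI with brush, where Nefl with Nefm gave 38.9% against 6.58% and Nefl with Nefh 36.1% against 8.33%. Among nuclei with at most 0.5% mitochondrial UMIs, a limit chosen for this comparison after seeing the data, the Nefm and Nefh values were 25% against 6.61% and 42.1% against 6.40%, with intervals apart, while Nefl with Nefh in SNI with brush was 21.1% against 8.72%, with intervals overlapping. Among glutamatergic nuclei alone, 10 of 12 SNI with brush nuclei high in Nefl were high in Nefh (83.3% against 1.85%), and after the hot water bath 7 of 25 were (28% against 6.61%), both with intervals apart. The other pairs were apart in SNI with brush only, as hot water bath nuclei gave 28% against 7.93% for Nefl with Nefm and 24% against 7.05% for Nefm with Nefh, with intervals overlapping.

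**Figure D4:**
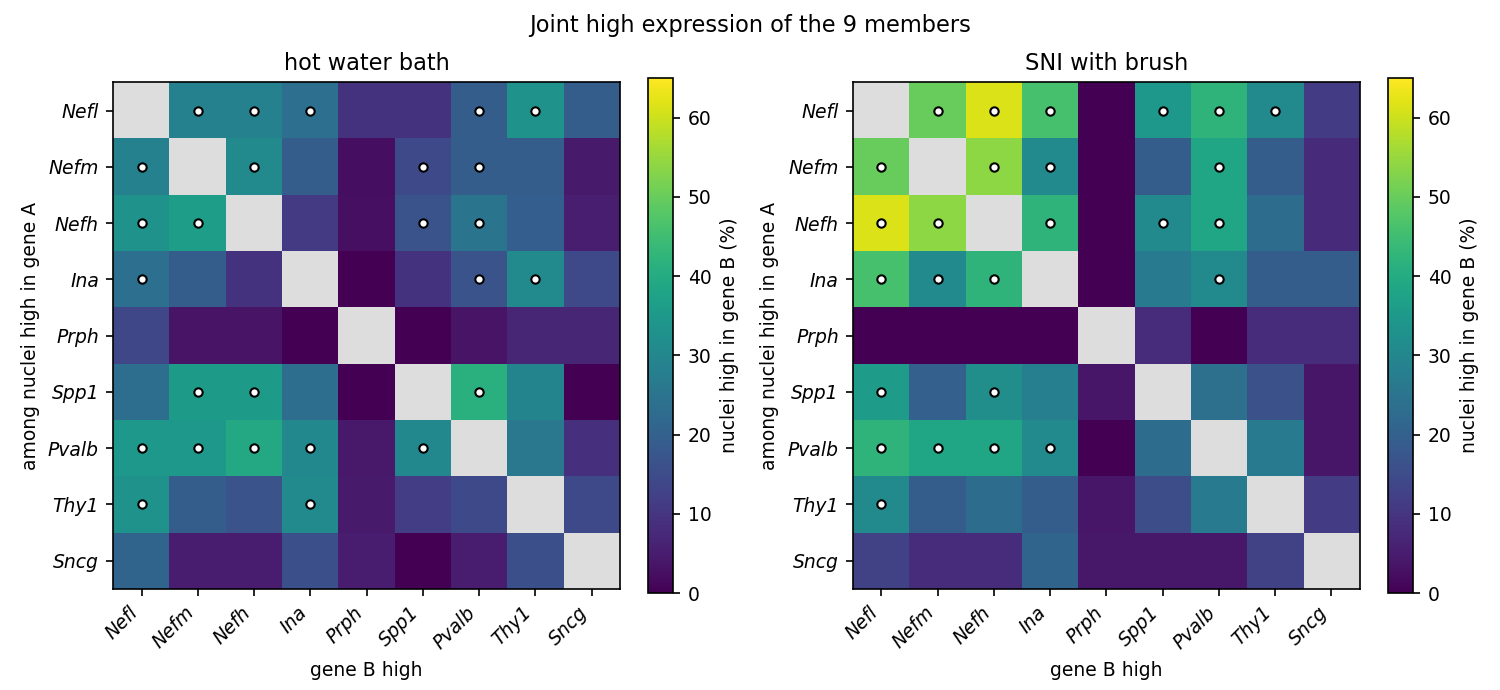
Share, in percent, of nuclei high in gene B among nuclei high in gene A, for all ordered pairs of the 9 genes in each library; a dot marks a pair whose 95% interval lies apart from that of the remaining nuclei. The triplet corner is brightest in SNI with brush, up to 61.5%, and the Prph and Sncg lines carry no dot.

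Nuclei high in at least 2 of the triplet genes numbered 23 and 21 in the hot water bath and SNI with brush libraries. They were not deeper than the rest, with medians of 35398 against 36957 UMIs after the hot water bath and 31458 against 33545 in SNI with brush. By class, 13 and 11 of them were glutamatergic and 4 and 7 glycinergic. These were 5.16% (2.78 to 8.66%) and 9.17% (4.67 to 15.8%) of glutamatergic nuclei, and 20% (5.73 to 43.7%) and 9.72% (4.00 to 19.0%) of glycinergic nuclei. None of the 26 serotonergic nuclei of the hot water bath library was among them (0%, 0 to 13.2%). Their median mitochondrial share was higher, 0.0928% against 0.0666% and 0.812% against 0.242%. The 6 oligodendrocyte markers summed to 97.7 against 77.3 CPM and 338 against 172 CPM. The part of either in what follows was not tested beyond the subsets given.

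Of the other 6 members, Spp1, Pvalb, Ina and Thy1 were at least 1.5-fold higher in triplet-high nuclei of both libraries, 4 of 6, where 5.2% of all genes tested were (15.3% for hot water bath and 13.6% for SNI with brush nuclei). Spp1 had 76.3 against 6.72 CPM after the hot water bath, a log2 ratio of 3.51 (3.04 to 3.96), and 113 against 33.6 CPM in SNI with brush, 1.75 (1.41 to 2.07). Pvalb had 24.7 against 7.83 CPM, 1.68 (0.93 to 2.32), and 189 against 49.1 CPM, 1.95 (1.69 to 2.20). The 189 CPM lie above the 41.6 CPM (23.8 to 67.5) of liver-gene nuclei. Ina, a filament subunit itself, gave 0.82 (0.45 to 1.15) and 1.17 (0.95 to 1.39), and Thy1 gave 0.89 (0.53 to 1.21) and 0.64 (0.40 to 0.86). Sncg stayed near 0 at -0.12 (-1.02 to 0.58) and 0.24 (-0.42 to 0.79). Prph was counted with 1 UMI in the 23 nuclei after the hot water bath, against 136 in the rest, a log2 ratio of -2.40 (-8.30 to -0.48), and in SNI with brush gave -0.57 (-2.36 to 0.58). Thus 0 of the 6 were at least 1.5-fold lower in both libraries, as 5.57% of all genes tested were.

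The count was smaller in a subset by mitochondrial share. Among the 403 and 191 nuclei with at most 0.5% mitochondrial UMIs, with high redefined among them, 22 and 14 were triplet-high. In these, 2 of the 6 members after the hot water bath and 1 in SNI with brush were at least 1.5-fold higher, as were 12.5% and 10.1% of all genes tested, and the cause was not tested. Pvalb kept 0.89 and 0.74. Spp1 had 1.84 and 0.16, Ina 0.30 and 0.38, and Thy1 0.29 and 0.17. Within glutamatergic nuclei alone the count was 4 in each library, where the share of all genes was not counted. Spp1 after the hot water bath rested largely on a pair of nuclei, chosen after their values were seen. The first, a glutamatergic nucleus of 42702 UMIs with 0.979% mitochondrial, held 29 Spp1 UMIs beside 13 of Nefl, 14 of Nefm, 6 of Nefh, 9 of Ina, 4 of Pvalb and 8 of Thy1. The second held 19 Spp1 UMIs beside 17, 16 and 7 of the triplet. Each was high in 7 members and had no Prph or Sncg UMI. Without the pair Spp1 had 25.1 against 6.72 CPM, a log2 ratio of 1.93 (1.13 to 2.60).

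The SNI with brush library held a nucleus of the same kind. It was glutamatergic, had 105320 UMIs and 0.658% mitochondrial, and held 69 Nefl, 66 Nefm, 37 Nefh, 28 Ina, 29 Spp1 and 45 Pvalb UMIs with none of Prph. In contrast, the nucleus with most Spp1 UMIs there, 55 among 136952, held 8, 6 and 1 of the triplet and was not triplet-high. A further triplet-high nucleus held 28 UMIs of Avil, a gene known from peripheral sensory neurons, with 20, 16 and 14 of the triplet and no Pvalb or Prph. Avil was found in no other triplet-high nucleus.

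Of 20 genes of axon excitability and the node of Ranvier, 11 were at least 1.5-fold higher in triplet-high nuclei of both libraries. They included Syt2, a synaptic calcium sensor of fast terminals, at 1.73 (1.54 to 1.91) and 1.18 (1.01 to 1.33), and the potassium channel gene Kcna1 at 1.81 (1.55 to 2.05) and 1.42 (1.23 to 1.60). The sodium channel subunit Scn4b had 2.24 (1.43 to 2.95) and 1.47 (1.08 to 1.83). With at most 0.5% mitochondrial UMIs, 7 of 20 passed, where 3.06% of all genes did. Syt2 then had 1.60 and 1.11 and Kcna1 1.38 and 1.07. Of 7 perineuronal net genes 4 passed (Acan, Bcan, Hapln1 and Hapln4), and 3 with at most 0.5% mitochondrial UMIs. The list of axon cytoskeleton and transport had 3 of 18 (Map1a, Stmn3 and Tuba4a), that of neurofilament partners and kinases 0 of 11 and other intermediate filaments 0 of 6.

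**Figure D5:**
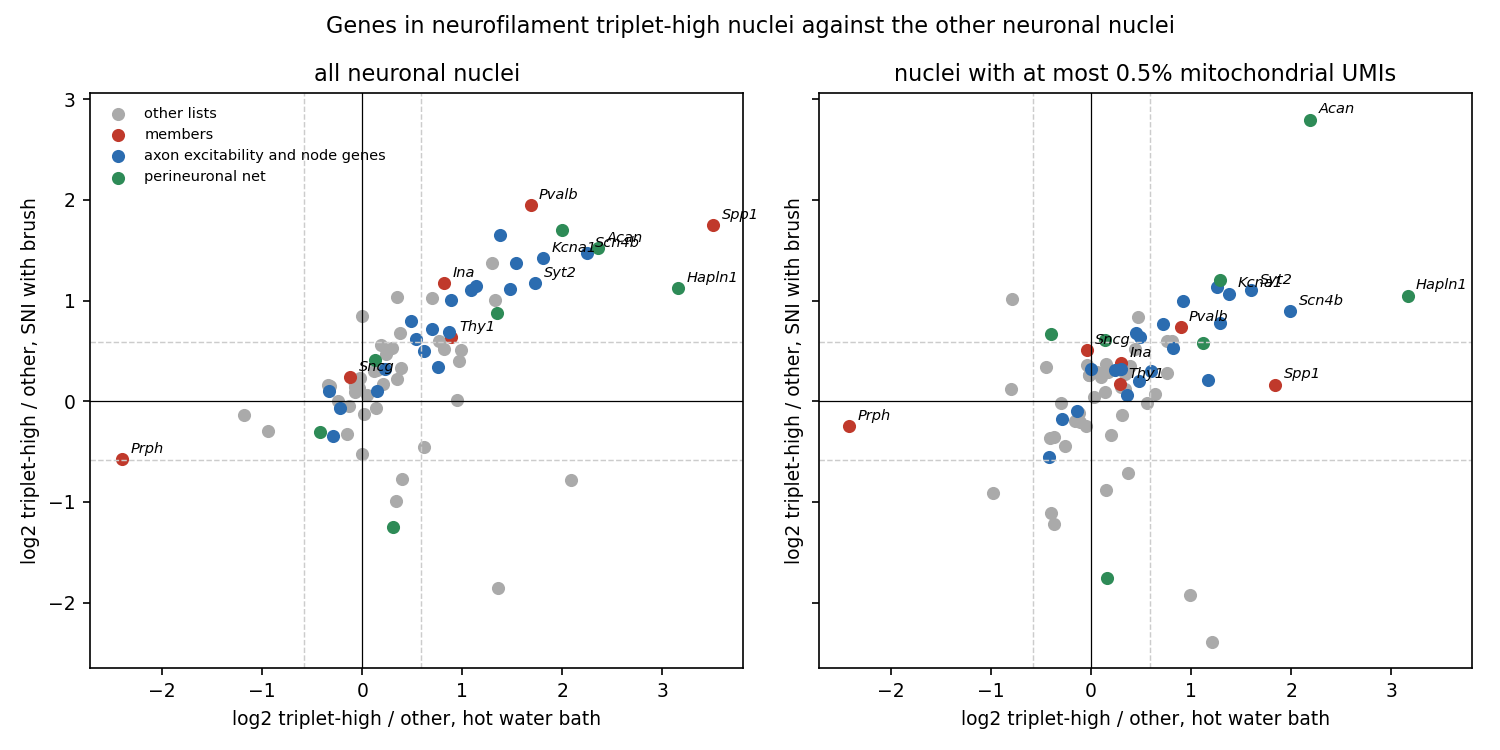
Log2 ratio of triplet-high over other neuronal nuclei in the hot water bath library (x axis) and in SNI with brush (y axis), for the 6 other members (red), axon excitability genes (blue), perineuronal net genes (green) and genes of 4 further lists (grey), in all neuronal nuclei and in those with at most 0.5% mitochondrial UMIs; dashed lines mark 1.5-fold. In the right panel Spp1, Ina and Thy1 lie below the upper dashed line of the y axis, while Kcna1, Syt2 and Pvalb lie above it.

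Between the libraries, 25.4% of all genes tested and 57.7% of the shortest 20% had at least 1.5 times the level in SNI with brush, as given above. Of the axon excitability genes 13 of 20 did, led by Scn4b at 2.56 and Vamp1 at 2.27. Of cytoskeleton and transport genes 8 of 18 did, including Tuba1a at 1.42. Partners and kinases had 4 of 11, such as Cdk5r1, the activator of a kinase of neurofilament tails, at 1.46. All 5 calcium buffer genes measured and 4 of 7 perineuronal net genes were higher. Other intermediate filaments had 2 of 6, Gfap and Synm. These 4 of 11 and 2 of 6 are near the share of all genes. No gene of these lists was at least 1.5-fold lower. The median over the excitability list was 0.76, against 1.14 for the members.

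The genes whose levels were most like the triplet's were found by Spearman's rho with the summed triplet per 10000, over 423 and 264 nuclei, among 9412 genes with a UMI in at least 20% of nuclei of each library. The median over these genes was 0.02 and the 99th percentile 0.25. Syt2 came first, at 0.39 and 0.61, and Kcna1 next, at 0.33 and 0.60. The other 8 of the 10 highest had means of the 2 libraries from 0.36 to 0.40, and included Epb41, a membrane skeleton gene, Sparcl1, Gprc5b, Tanc1, the sodium channel gene Scn8a and Vamp1. Of the members, Thy1 ranked 131, Ina 294, Pvalb 430 and Sncg 2007, whereas Spp1 and Prph were in too few nuclei to be ranked. Within glutamatergic nuclei Syt2 kept 0.33 and 0.60, and with at most 0.5% mitochondrial UMIs 0.36 and 0.60. After thinning to 9000 UMIs it had 0.30 and 0.44, and Kcna1 0.23 and 0.48. The other genes named here then ran from 0.05 (Vamp1) to 0.19 (Epb41) after the hot water bath and from 0.29 to 0.38 in SNI with brush. The nuclei share library and depth, so these rank genes within these data only.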

How the data were processed

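Nuclear RNA of 2 pooled samples was measured with the 10x 3' v3 kit, per the labels' protocols. The authors deposited UMI counts per gene and nucleus as whole numbers. Alignment to mm10 with Cell Ranger 5.0 and the use of Seurat are known per the submitters' processing notes; the sources used here give neither the Seurat version nor whether intronic reads were counted. The tables hold 425 and 288 of 723 and 850 listed barcodes, so nuclei had been selected before deposit. All passed at least 500 genes and under 5% mitochondrial UMIs. Scrublet (scanpy 1.11.5) called 2 and 7 doublets, which were removed, and 17 nuclei with few neuron relative to other markers were set aside.

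Counts were summed over nuclei as CPM with exact Poisson intervals. Log2 ratios had 0.5 UMI added and exact conditional intervals. Shares carry Clopper-Pearson intervals, all at 95%. No p-value was computed, because nuclei are not replicates. Thinning drew 9000 UMIs per nucleus, which every neuronal nucleus reached. Genes named are all members, up to 4 per list by the size of the ratio, and the 10 most like the triplet; other genes, such as some named for triplet-high nuclei, were picked with their values in view. Some genes that the rule names are left out of the text. The members and lists were chosen with earlier results of these data known. Computation was checked on simulated data. Tools were matplotlib 3.10.9, pandas 2.3.3, scipy 1.17.1, numpy 2.4.6 and python 3.11.15. Alternatives were other scalings, subsets of nuclei, thresholds and class rules.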

Additional observations from a re-analysis of the deposited data

Results flagged for a closer look

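The 17 SNI with brush nuclei set aside as not neuronal entered no comparison, and all 9 members were counted in them. They held 20 UMIs of Nefl, 16 of Nefm and 9 of Nefh. The other filament genes had 8 UMIs (Ina) and 4 UMIs (Prph). Spp1 had 4, Pvalb 19, Thy1 6 and Sncg 7. In the 15 liver-gene nuclei among them no nucleus held more than 3 UMIs of a member. The hot water bath library has no such nuclei to compare with.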

How the results depend on the processing

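The count of 7 members at least 1.5-fold higher was also 7 under size-factor scaling, means over nuclei, all nuclei, nuclei with at most 0.5% mitochondrial UMIs and a minimum of 20 UMIs. It was 7 too without the 3 SNI with brush nuclei that held most liver-gene UMIs relative to neuron markers. Of all genes tested, 17.8% passed with size factors, 22.9% with at most 0.5% mitochondrial UMIs and 30.4% with a minimum of 20 UMIs. For the remaining settings that share was not counted. The members' median log2 ratio of 1.14 was 0.95 with size factors and 0.99 with at most 0.5% mitochondrial UMIs. With classes weighted equally it was 1.05, counted below as the same reading. That median is the Prph value, raised by the 0.5 UMI added to a count of 0. In that setting Nefl gave 0.90, Nefm 0.68, Nefh 1.19, Ina 0.91 and Spp1 1.33, all below their intervals. Pvalb, Thy1 and Sncg stayed within theirs. Thinned to 9000 UMIs, the share of Nefm-high nuclei that were Nefh-high was 5.62% after the hot water bath and 24.1% in SNI with brush, where ties and low counts change which nuclei are called high. Members at least 1.5-fold higher in triplet-high nuclei were 4 in each library, beside 15.3% and 13.6% of all genes tested. Among nuclei with at most 0.5% mitochondrial UMIs they were 2 after the hot water bath and 1 in SNI with brush. There 12.5% and 10.1% of all genes passed, and the cause was not tested. No value changed sign where its interval excluded 0. Of the summary values 35 alternatives gave the same reading and 6, all given above, moved, and of the single-gene values 124 did and 51 moved outside the interval given. Subsets by mitochondrial share, glutamatergic class, oligodendrocyte and liver markers, and without the nuclei highest in Spp1 or Prph, were chosen for triplet-high nuclei, joint expression, class levels or ratios after seeing the data, except for the mitochondrial subset of the ratios. No paired analysis was possible because each treatment has 1 library, and no replicate could be left out.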
